A study of Homo sapiens with 9 samples.

Results

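The comparison described here sets BrM2, a brain metastatic sub-population, against Par, the parental MDA-MB-231 line from which it was derived. MDA-MB-231 is a human breast cancer line of the claudin-low type, which lacks the estrogen and progesterone receptors and has low levels of some cell junction proteins. BrM2 cells were selected in mice for colonization of the brain, and LM2 cells for colonization of the lung, and each line is 1 population. The labels name no treatment and no introduced gene for any line, and all were grown as monolayers in DMEM with fetal bovine serum, so the values are those of cultured cells and not of cells in a brain. RNA was sequenced from 3 libraries of Par and 3 of BrM2, which are 6 of the 9 libraries of the series, and the 3 LM2 libraries entered the estimate of the spread and are named where BrM2 was also compared with LM2. The 3 replicates of a line were harvested at different passages of 1 population, and the replicate number was a term of the model. The p-values therefore measure the spread left after differences shared by libraries of the same number, and not the full spread between passages. Features that arose by chance in that 1 population cannot be told apart from features selected in the brain.

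Cells that colonize the brain have to leave the vessel across the blood-brain barrier, survive among astrocytes that secrete plasminogen activators and death ligands, and grow along capillaries. Known mediators of these steps include matrix proteases, sialyltransferases, serpins that block plasmin, and connexins. Other gene groups with a textbook link to the tissue are adhesion proteins of the synapse, which join neurons across the synaptic cleft, and the receptors for GABA and glutamate, its inhibitory and excitatory transmitters. Genes of interferon response and antigen presentation decide how a tumor cell is seen by immune cells. The gene groups below are ordered from mediators and neural genes to immune genes, the cell surface and matrix, signaling, and metabolism.

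Of 58884 genes in the table, 13001 passed a filter on low counts and were tested. The filter kept a gene on its highest library in any line. A gene nearly absent in Par or in BrM2 was thus tested only where it was high in another line. This raises the share of calls in lists where many members have low counts. A gene is said to have risen or fallen in BrM2 when its p, from the quasi-likelihood test of edgeR and adjusted after Benjamini and Hochberg, was under 0.05. The model held the line and, as a block, the replicate number. In all, 5551 genes passed (42.7% of those tested), 2538 higher (19.5%) and 3013 lower (23.2%). A change of at least 2-fold was found for 775 higher genes (5.96%) and 1169 lower genes (8.99%). The median log2 fold change over all genes tested was -0.04. The number of calls rested on the block. In the same model without it, called the unpaired fit below, 1721 genes passed, 812 higher and 909 lower, and all 1721 had also passed with the block. The 3 BrM2 libraries were all above or all below the 3 Par libraries for 31.3% of the genes tested, 15.2% above and 16.1% below. Of the genes that passed, 98.7% differed in the same direction in all 3 pairs of libraries with the same number. The test with the block favors such genes, so this share is no separate support for the calls.

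Counts on genes totalled 19878879 to 23948742 per Par library and 14371858 to 22055215 per BrM2 library, and BrM2 replicate 1 had the fewest. Levels are given as CPM, counts scaled to one common library total after TMM normalization. At these depths, 3 counts correspond to 0.118 to 0.158 CPM in a Par library and to 0.132 to 0.221 CPM in a BrM2 library. Where every library of a line had at most 3 counts of a gene, the fold is given as a lower bound, with 3 counts put in place of each of those libraries. Within pairs of the same replicate number, the ratio of BrM2 to Par across genes followed the GC content of transcripts with a Spearman coefficient of 0.25 in pair 1, -0.37 in pair 2 and 0.11 in pair 3, and the fitted fold change followed it with -0.02.

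The labels were checked against marker genes. VIM, the intermediate filament of mesenchymal cells, was at 882, 636 and 655 CPM in Par and 1821, 1432 and 1253 CPM in BrM2, whereas CDH1, the epithelial cadherin, was at most 1.94 CPM in every library. Both lines thus had the high vimentin and low E-cadherin RNA that MDA-MB-231 is known for. Of 14 mammary epithelial markers, 8 were tested, 0 rose and 4 fell (KRT7, KRT8, CLDN4 and GATA3), and their summed level was 1550 to 2850 CPM in Par and 823 to 1800 CPM in BrM2. Of 8 neuron markers, 3 were tested, of which 0 rose and 2 fell (SNAP25 and MAP2). The other 5 had at most 3 counts in every library, with STMN2, NEFL and NEFM at 0 counts. The sum of the 8 was 5.57 to 10.9 CPM in Par and 3.10 to 7.02 CPM in BrM2. The 7 astrocyte markers summed to 85.2 to 103 CPM in Par and 74.2 to 89.8 CPM in BrM2, and AQP4 and GJB6 had at most 3 counts. The 7 oligodendrocyte markers summed to 161 to 176 CPM in Par and 137 to 149 CPM in BrM2, nearly all of it MBP, with MOG and OLIG2 at 0 counts. Of 8 microglia and leukocyte markers 1 was tested, CSF1R, which fell, and the 6 endothelial markers summed to 6.93 to 13.4 CPM in Par and 10.6 to 12.4 CPM in BrM2. Defining markers of neurons and oligodendrocytes were therefore at or near 0 in the BrM2 libraries, and of the astrocyte sum most was SOX9, which was at similar levels in Par, while GFAP and SLC1A3 fell and ALDH1L1 rose, from 3.42, 1.99 and 2.48 CPM to 4.80, 3.80 and 3.69 CPM. Among 8 fibroblast markers, COL1A2 and PDGFRB fell, and the sum was 56.8 to 75.1 CPM in Par and 12.3 to 22.2 CPM in BrM2.

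Genes that the study's text names, or that its pathway table lists as BrM2 targets, were set aside. Among other protein-coding genes averaging at least 50 counts, the 15 largest fitted rises included genes of the synapse, the neuronal surface and the testis. Some of the genes set aside, such as KIRREL3 and COL1A2, changed more than some of those listed. SLITRK1, a transmembrane protein that organizes synapses, had 0, 0 and 0 CPM in Par and 8.41, 10.5 and 11.9 CPM in BrM2. It was thus undetected in the 3 Par libraries and at least 73.1-fold higher in BrM2 (adjusted p = 1.06e-05). CNTN5, a contactin of neuronal axons, had 0, 0 and 0 CPM in Par and 3.91, 7.59 and 8.15 CPM in BrM2, which is at least 46.7-fold higher (adjusted p = 2.52e-06). NRXN3, a presynaptic neurexin, had 0, 0 and 0.118 CPM in Par and 4.72, 5.83 and 5.94 CPM in BrM2 and was at least 39.2-fold higher (adjusted p = 3.32e-06). Teneurins bind latrophilins across the synapse, and 2 of them were on the list. TENM2 was at 0, 0.0968 and 0.0393 CPM in Par and 11.1, 11.8 and 13.9 CPM in BrM2, at least 87.5-fold higher. TENM1 was at 0.105, 0.242 and 0.275 CPM in Par and 8.05, 22.5 and 22.5 CPM in BrM2, a log2 fold change of 6.37 ± 0.22 (SE, adjusted p = 3.64e-08), although STAG2 overlaps it on the opposite strand and reads of the pair may be shared.

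AMPH encodes amphiphysin, a protein of synaptic vesicle endocytosis, and rose from 0, 0.339 and 0.157 CPM in Par to 74.5, 66.8 and 73.9 CPM in BrM2, a log2 fold change of 8.68 ± 0.35 (adjusted p = 7.46e-08). The level in LM2 was 20.2 CPM on average, and BrM2 was also above LM2 (log2 1.84, adjusted p = 9.74e-05). FRMPD4, a scaffold of dendritic spines, had 0, 0.0484 and 0 CPM in Par and 4.21, 9.98 and 8.68 CPM in BrM2, at least 54.3-fold higher. EPB41L3, a membrane skeleton protein, had 0, 0 and 0.118 CPM in Par and 16.2, 17.4 and 14.7 CPM in BrM2, at least 115-fold higher. AMOT, which binds angiostatin and restrains YAP at junctions, had 0.158, 0.145 and 0.0786 CPM in Par and 13.2, 13.6 and 10.8 CPM in BrM2, at least 89.5-fold higher. In each of these genes the groups did not overlap, and the Par libraries held at most a few counts. GABRA3, the alpha-3 subunit of the GABA-A receptor, rose from 0.0525, 0.242 and 0.157 CPM to 12.9, 15.6 and 15.2 CPM (log2 6.53 ± 0.38, adjusted p = 5.85e-07).

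The other large rises were a collagenase, a tubulin, a cytochrome oxidase subunit and cancer-testis antigens. MMP1, the interstitial collagenase, had the highest level among them, with 3.57, 3.10 and 1.93 CPM in Par and 439, 757 and 584 CPM in BrM2. COX7B2, a testis form of a cytochrome c oxidase subunit, rose from 0.420, 0.339 and 0.197 CPM to 25.2, 25.3 and 20.9 CPM (log2 6.24 ± 0.28, adjusted p = 9.40e-08). TUBA3C, an alpha-tubulin of the testis, was at 0, 0 and 0.118 CPM in Par and 67.2, 26.0 and 25.3 CPM in BrM2, at least 282-fold higher, and 16.9% of its 50-base stretches also occur in another gene. SPANXD and MAGEA6 are described with the cancer-testis antigens.

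**Figure D1:**
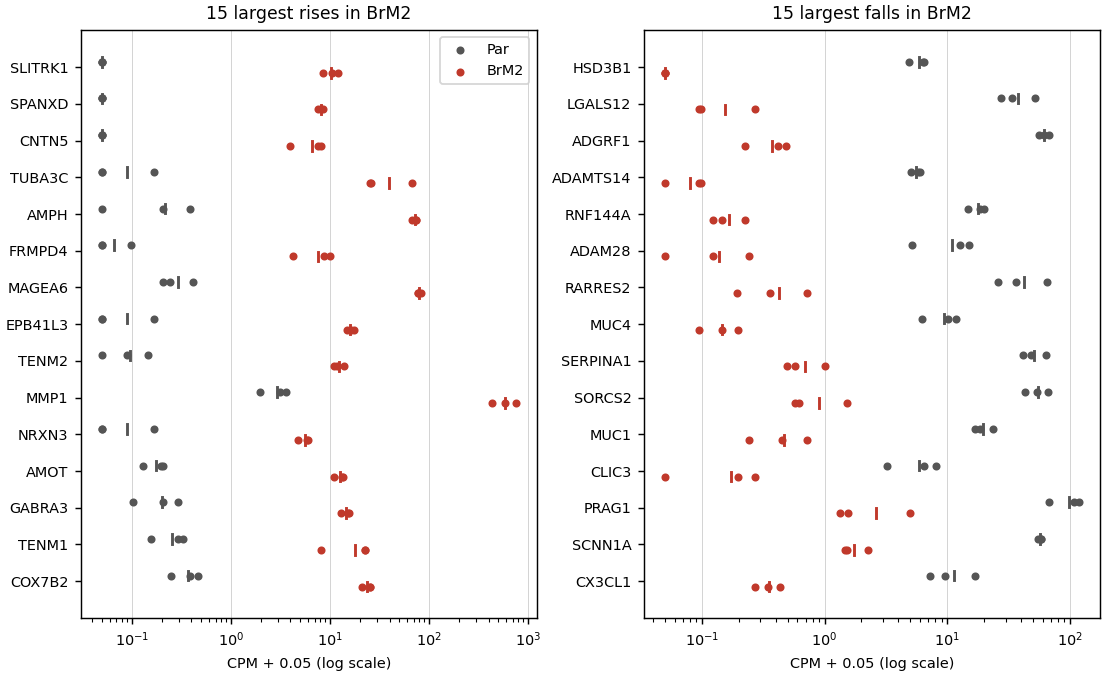
Levels of the 15 genes listed for the largest rises (left) and the 15 for the largest falls (right) in each library, as CPM plus 0.05 on a log axis. Genes set aside in the text are left out. Points are the 3 Par (grey) and 3 BrM2 (red) libraries and short lines are the means of each line, and in all 30 genes the groups do not overlap, a condition for being on the list.

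The 15 largest falls, chosen in the same way, included secreted proteins, mucins, surface receptors and enzymes. HSD3B1, an enzyme of steroid synthesis, had 6.25, 4.79 and 6.37 CPM in Par and 0, 0 and 0 CPM in BrM2, at least 35.0-fold lower in BrM2 (adjusted p = 3.64e-05). LGALS12, a galectin known from fat cells, fell from 52.1, 27.4 and 33.6 CPM to 0.222, 0.0442 and 0.0479 CPM, at least 227-fold. ADGRF1, an adhesion G protein-coupled receptor, fell from 56.4, 61.8 and 67.6 CPM to 0.369, 0.177 and 0.431 CPM (log2 -7.62 ± 0.26, adjusted p = 3.64e-08). Both genes were plainly expressed in every Par library and almost absent in BrM2. ADGRF1 was still at 12.3 CPM in LM2, above BrM2 (log2 -5.28, adjusted p = 3.58e-07).

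Both membrane mucins on the list, which cover the apical face of epithelia, fell. MUC1 was at 23.7, 16.9 and 18.4 CPM in Par and 0.664, 0.397 and 0.192 CPM in BrM2 (log2 -5.62 ± 0.28, adjusted p = 1.56e-07). MUC4 was at 6.20, 10.2 and 11.8 CPM in Par and 0.148, 0.0442 and 0.0959 CPM in BrM2, at least 56.7-fold lower. SCNN1A, the alpha subunit of the epithelial sodium channel, fell from 57.8, 54.9 and 57.6 CPM to 2.21, 1.41 and 1.49 CPM, and its levels varied little within each line (log2 -5.10 ± 0.23, adjusted p = 9.67e-08). LTBR overlaps SCNN1A on the opposite strand. RARRES2, which encodes the chemoattractant chemerin, fell from 64.8, 36.5 and 26.1 CPM to 0.664, 0.309 and 0.144 CPM (log2 -6.86 ± 0.25). CX3CL1, the ligand of the receptor on microglia, fell from 16.9, 9.58 and 7.23 CPM to 0.295, 0.221 and 0.383 CPM (log2 -5.09 ± 0.29, adjusted p = 5.38e-07). The largest falls also held the E3 ligase RNF144A (log2 -7.11), the sortilin-family receptor SORCS2 (-6.10), the chloride channel protein CLIC3 (-5.49), the pseudokinase PRAG1 (-5.40), the metalloproteinase ADAM28 (-6.96), ADAMTS14, which trims procollagen (at least 33.4-fold lower), and SERPINA1, alpha-1-antitrypsin (-6.36).

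Among 13 mediators of brain metastasis taken from the literature, 8 rose and 3 fell, where 19.5% and 23.2% of all genes did, and the median log2 fold change was 0.61. In the unpaired fit 4 rose and 1 fell. Several of these genes were chosen by others because they are high in brain metastatic derivatives of this line, so their direction is no independent evidence. In the group for crossing of the barrier, 4 of 6 members rose. MMP1 rose to 439, 757 and 584 CPM from 3.57, 3.10 and 1.93 CPM in Par, a log2 fold change of 7.69 ± 0.28 (adjusted p = 3.64e-08), and was at 229.8 CPM on average in LM2. ST6GALNAC5, a sialyltransferase of the brain, was at 0.473, 1.94 and 1.93 CPM in Par and 9.08, 12.8 and 10.7 CPM in BrM2 (log2 2.95 ± 0.28, adjusted p = 1.46e-05). PTGS2, which encodes the prostaglandin enzyme COX2, was at 0.105, 0.484 and 1.53 CPM in Par and 2.73, 2.78 and 2.49 CPM in BrM2 (log2 1.90 ± 0.50, adjusted p = 0.0103), and its adjusted p was 0.0982 in the unpaired fit. HBEGF, a ligand of the EGF receptor, was at 106, 86.5 and 78.4 CPM in Par and 131, 144 and 131 CPM in BrM2 (log2 0.61 ± 0.17), with an adjusted p of 0.014, and 0.21 in the unpaired fit.

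CTSS, the cathepsin S protease, went the other way, with 13.03, 14.5 and 15.96 CPM in Par and 4.87, 6.27 and 7.91 CPM in BrM2 (log2 -1.20 ± 0.17, adjusted p = 0.000234). ANGPTL4 was at 3.89, 3.92 and 2.36 CPM in Par and 3.99, 2.03 and 2.21 CPM in BrM2 and did not pass the test (log2 -0.34 ± 0.22, adjusted p = 0.243). Its mean in LM2 was 9.75 CPM, and BrM2 was lower than LM2 (log2 -1.84, adjusted p = 0.000103).

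In the plasmin group, both serpins and one activator rose. SERPINB2, an inhibitor of plasminogen activators, was at 0, 0.145 and 0.275 CPM in Par and 6.94, 6.71 and 3.21 CPM in BrM2 (log2 5.07 ± 0.53, adjusted p = 2.96e-05). SERPINI1, neuroserpin, was at 0.368, 1.31 and 0.786 CPM in Par and 2.07, 4.15 and 4.17 CPM in BrM2 (log2 2.12 ± 0.34, adjusted p = 0.00056, and 0.0705 in the unpaired fit). Both were low in Par and LM2. Of the plasminogen activators, PLAT was at 237, 249 and 216 CPM in Par and 424, 275 and 358 CPM in BrM2 (log2 0.57 ± 0.18), and PLAU at 579, 413 and 411 CPM in Par and 369, 280.1 and 246 CPM in BrM2 (log2 -0.65 ± 0.14), so that tissue-type activator RNA rose and urokinase RNA fell. Their adjusted p were 0.024 and 0.00335, and 0.21 and 0.255 in the unpaired fit. L1CAM, which lets cells spread along capillaries and is cleaved by plasmin, had 176, 153 and 131 CPM in Par and 144, 76.8 and 114 CPM in BrM2 (log2 -0.49 ± 0.16, adjusted p = 0.0292, and 0.364 in the unpaired fit), and its groups overlapped.

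GJA1, connexin 43, which joins cancer cells to astrocytes, was at 3.52, 6.44 and 7.90 CPM in Par and 11.2, 32.0 and 30.2 CPM in BrM2 (log2 1.997 ± 0.18, adjusted p = 9.33e-06), with replicate 1 the lowest of each line. PCDH7, a protocadherin of the same contact, was at 6.25, 8.62 and 7.23 CPM in Par and 5.54, 6.05 and 5.66 CPM in BrM2 (log2 -0.35 ± 0.16) and did not pass (adjusted p = 0.0888). It was at 17.2 CPM on average in LM2, above BrM2 (log2 of BrM2 to LM2 -1.58, adjusted p = 2.91e-05).

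**Figure D2:**
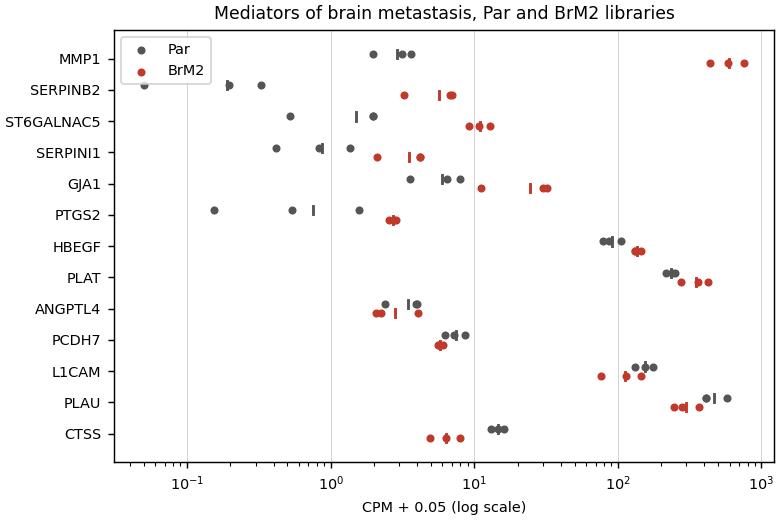
Levels of the 13 mediators of brain metastasis in each Par (grey) and BrM2 (red) library, as CPM plus 0.05 on a log axis, ordered by fold change, with short lines for the means. MMP1 shows the widest separation, and PLAU, L1CAM, ANGPTL4 and PCDH7 lie close together in both lines.

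Genes of the synapse rose in one part and fell in another. Of synaptic adhesion and scaffold proteins, 11 of 21 members tested rose (52.4%) and 2 fell (9.52%), against 9 and 1 in the unpaired fit, with a median log2 fold change of 0.47. Besides SLITRK1, TENM2, TENM1 and NRXN3, TENM4 went from 0 counts in the 3 Par libraries to 5.39, 3.67 and 5.61 CPM, at least 34.8-fold higher (adjusted p = 1.13e-05). NLGN3, a postsynaptic neuroligin, fell from 2.10, 2.37 and 2.71 CPM to 0.664, 0.177 and 0.336 CPM (log2 -2.73 ± 0.42, adjusted p = 0.000467). In the active zone group, which holds the proteins that dock vesicles at the presynaptic membrane, 5 rose and 2 fell of 15 tested, with 3 and 1 in the unpaired fit and a median of 0.46. PPFIA4, a liprin of the active zone, fell from 5.31, 8.57 and 10.8 CPM to 1.11, 0.839 and 1.34 CPM (log2 -2.91 ± 0.29). Among vesicle and SNARE proteins, which carry out the fusion step, 6 rose and 11 fell of 33 tested, with 3 and 4 in the unpaired fit and a median of -0.20. The calcium sensors SYT12 and SYT2 were among those that fell, and without any library of replicate 3 the number of falls was 6. SYT12 fell from 11.8, 7.75 and 5.03 CPM to 1.33, 0.530 and 0.479 CPM (log2 -3.45 ± 0.25), and SYT2 from 8.14, 9.15 and 9.95 CPM to 3.77, 2.34 and 2.30 CPM (log2 -1.76 ± 0.25). SLITRK1, TENM2, NRXN3 and TENM4 had at most 3 counts in every Par library and passed the filter on the counts of other lines, which raises the share of rises among the adhesion members tested. SNAP25, the neuronal SNARE protein, was among the vesicle genes that fell and was under 1.5 CPM in every library.

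Of the genes of GABA receptors and metabolism tested, more rose than fell, and both glutamate receptor genes tested fell. Only 6 of 26 genes of GABA receptors and GABA metabolism passed the filter, of which 4 rose and 1 fell (4 and 0 in the unpaired fit). GABBR2 and GABRA3 were nearly absent in Par and passed the filter on the counts of other lines, which raises the share of rises among those tested. GABBR2, a subunit of the GABA-B receptor, was at 0.0525, 0.0968 and 0.118 CPM in Par and 4.72, 5.61 and 5.32 CPM in BrM2, at least 37.2-fold higher (adjusted p = 5.03e-07). GAD1, the enzyme that makes GABA, was at 3.52, 3.39 and 4.17 CPM in Par and 6.42, 7.90 and 6.71 CPM in BrM2 (log2 0.93 ± 0.19, adjusted p = 0.00244). ALDH5A1, the last step of GABA breakdown, was at 4.83, 5.18 and 5.03 CPM in Par and 7.46, 10.2 and 9.63 CPM in BrM2 (log2 0.86 ± 0.16). The rises were thus 2 receptor subunits, GABBR2 and GABRA3, and 2 enzymes, while GABRE, the epsilon subunit, fell from 27.5, 43.9 and 46.5 CPM to 9.30, 25.2 and 24.6 CPM (log2 -1.07 ± 0.16, adjusted p = 0.000333, and 0.184 in the unpaired fit). Of 26 glutamate receptor genes 2 passed the filter, and both kainate receptor subunits fell. GRIK2 was low in BrM2 and passed the filter on the counts of other lines, which raises the share of falls among those tested. GRIK4 fell from 25.6, 21.6 and 19.1 CPM to 4.13, 2.78 and 3.55 CPM (log2 -2.67 ± 0.16), and GRIK2 from 2.99, 3.78 and 4.32 CPM to 0.738, 1.19 and 1.20 CPM (log2 -1.83 ± 0.24). Both were also called in the unpaired fit.

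Voltage-gated channels set the excitability of neurons and muscle. Of 129 such genes 27 passed the filter, and 11 of these rose and 3 fell, with 8 and 2 in the unpaired fit and a median of 0.40. KCNQ3 and CACNG8 were low in Par and passed the filter on the counts of other lines, which raises the share of rises among those tested. KCNQ3, a potassium channel of the neuronal M-current, was at 0.105, 0.339 and 0.668 CPM in Par and 3.32, 3.27 and 3.93 CPM in BrM2 (log2 3.21 ± 0.38). KCNS3, a silent potassium channel subunit, was at 4.78, 4.79 and 4.36 CPM in Par and 26.2, 24.7 and 27.2 CPM in BrM2 (log2 2.49 ± 0.15, adjusted p = 8.27e-07). CACNG8, a calcium channel and AMPA receptor auxiliary subunit, was at 0.105, 0.145 and 0.118 CPM in Par and 1.25, 2.83 and 3.55 CPM in BrM2, at least 18.1-fold higher, and CACNA2D4, an alpha2delta subunit, at 2.15, 2.42 and 2.79 CPM in Par and 13.4, 6.84 and 7.86 CPM in BrM2 (log2 1.88 ± 0.26). Among the channel genes that fell were KCND1 (log2 -2.33) and CACNA2D1 (-1.22). CACNA2D1 had 7.46, 11.4 and 10.5 CPM in Par and 1.18, 8.26 and 5.37 CPM in BrM2, so that its groups overlapped, and its adjusted p was 0.02 with the block and 0.474 in the unpaired fit.

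The immunoglobulin adhesion family, which holds the contactins, NCAM proteins and DSCAM, had 6 members that rose and 3 that fell of 17 tested (5 and 0 in the unpaired fit). The other 18 of 35 members were below the filter. CNTN5, DSCAM, KIRREL3 and NCAM2 were low or absent in Par and passed the filter on the counts of other lines, which raises the share of rises among those tested. DSCAM, which tells neurites apart, was at 0.0525, 0.0484 and 0.0786 CPM in Par and 5.91, 7.02 and 6.90 CPM in BrM2, at least 47.1-fold higher. KIRREL3, a synaptic nephrin-like protein, was at 0.263, 0.339 and 0.157 CPM in Par and 34.2, 14.6 and 18.3 CPM in BrM2 (log2 6.40 ± 0.29, adjusted p = 9.40e-08), and NCAM2 at 0.683, 1.06 and 0.904 CPM in Par and 5.91, 17.9 and 16.2 CPM in BrM2 (log2 3.86 ± 0.26). Of the falls, KIRREL1 was at 268, 222 and 231 CPM in Par and 175, 157 and 159 CPM in BrM2 (log2 -0.55 ± 0.10, adjusted p = 0.00172, and 0.0709 in the unpaired fit).

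Axon guidance genes changed in both directions. Of guidance ligands, 9 rose and 9 fell of 27 tested, with 4 and 5 in the unpaired fit and a median of 0.07, and of receptors, 6 rose and 12 fell of 22 tested, with 3 and 5 in the unpaired fit and a median of -0.65. Without BrM2 replicate 3, 5 ligands rose. The ROBO receptors bind SLIT proteins, and ROBO1 and ROBO2 rose. ROBO1 was at 5.52, 7.99 and 9.36 CPM in Par and 38.2, 77.0 and 80.2 CPM in BrM2 (log2 3.06 ± 0.14, adjusted p = 9.49e-08), and ROBO2 at 0.0525, 0 and 0 CPM in Par and 4.06, 9.05 and 11.6 CPM in BrM2, at least 58.6-fold higher. NEO1, the netrin receptor neogenin, was at 22.4, 18.1 and 20.6 CPM in Par and 82.8, 85.2 and 87.7 CPM in BrM2 (log2 2.07 ± 0.13, adjusted p = 7.50e-07). BrM2 was above LM2 for NEO1 (log2 2.13, adjusted p = 1.04e-06). Semaphorin genes divided, since SEMA6A was at 0.630, 1.65 and 1.57 CPM in Par and 3.10, 3.93 and 4.17 CPM in BrM2 (log2 1.57 ± 0.26, adjusted p = 0.000785, and 0.0501 in the unpaired fit) and SEMA5A at 7.57, 9.83 and 13.2 CPM in Par and 0.738, 0.662 and 0.527 CPM in BrM2 (log2 -4.00 ± 0.28, adjusted p = 1.99e-06). The plexins PLXNA4 and PLXNB1, receptors of semaphorins, fell. PLXNA4 fell from 22.3, 19.0 and 16.6 CPM to 2.29, 2.16 and 1.63 CPM (log2 -3.24 ± 0.18), and PLXNB1 from 7.62, 7.26 and 8.77 CPM to 2.58, 1.46 and 2.73 CPM (log2 -1.84 ± 0.23). EPHB3, an ephrin receptor, also fell (log2 -1.85 ± 0.25).

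Among cadherins, single genes rose while most clustered protocadherins tested fell. FAT3, an atypical cadherin of neurons, was at 5.31, 8.04 and 5.19 CPM in Par and 67.8, 72.8 and 69.7 CPM in BrM2 (log2 3.52 ± 0.16, adjusted p = 9.40e-08), and BrM2 was also above LM2 (log2 3.87, adjusted p = 9.81e-08). CDH4, the retinal cadherin, was at 65.8, 61.4 and 45.4 CPM in Par and 215, 96.5 and 123 CPM in BrM2 (log2 1.28 ± 0.17), and CELSR1, a planar polarity cadherin, at 11.6, 13.4 and 9.87 CPM in Par and 41.5, 19.9 and 30.6 CPM in BrM2 (log2 1.36 ± 0.22). The clustered protocadherins give neurons their surface identity and lie side by side on chromosome 5, where the 10 members tested span positions 141192353 to 141512975 (GRCh38.p14). Of these 10, of 52 in the list, 0 rose and 8 fell, all 8 also in the unpaired fit, with a median log2 fold change of -1.39. PCDHB14 and PCDHGA4 were low in BrM2 and passed the filter on the counts of other lines, which raises the share of falls among those tested. PCDHB13 fell from 9.35, 12.5 and 13.1 CPM to 1.48, 1.72 and 3.40 CPM (log2 -2.43 ± 0.22), PCDHB14 from 3.52, 7.70 and 7.51 CPM to 1.55, 1.24 and 1.15 CPM (log2 -2.24 ± 0.30), and PCDHGA4 from 3.15, 3.00 and 4.01 CPM to 0.960, 0.618 and 1.63 CPM (log2 -1.72 ± 0.32). These genes share 14.3% to 44.9% of their 50-base stretches with other genes, so that reads may be split between neighbors. PCDH1, a protocadherin outside the clusters, fell as well, from 23.2, 10.9 and 10.0 CPM to 1.62, 1.32 and 1.58 CPM (log2 -3.17 ± 0.25).

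Cancer-testis antigens are normally restricted to germ cells, are silenced by DNA methylation elsewhere and are targets of T cells in tumors. Of 76 genes in the list, 10 passed the filter, most of them on the strength of the BrM2 libraries, and 8 of these were higher and 0 lower, with all 8 also called in the unpaired fit. Of the other 66, 36 had 0 counts in all 6 libraries. MAGEA6 was at 0.368, 0.194 and 0.157 CPM in Par and 78.0, 77.2 and 83.6 CPM in BrM2 (log2 8.39 ± 0.25, adjusted p = 1.98e-08), and its mean in LM2 was 0.179 CPM. MAGEA3 was at 0.210, 0.678 and 0.157 CPM in Par and 17.3, 10.1 and 13.8 CPM in BrM2 (log2 5.29 ± 0.46) and MAGEA11 at 0.473, 0.194 and 0.157 CPM in Par and 5.54, 4.55 and 4.65 CPM in BrM2 (log2 4.20 ± 0.39). SPANXD was at 0, 0 and 0 CPM in Par and 8.56, 7.59 and 8.004 CPM in BrM2, at least 57.4-fold higher (adjusted p = 1.96e-06). MAGEA6 shares 61.6% and MAGEA3 51.9% of its 50-base stretches with other genes, so the division of reads within the family is uncertain, whereas MAGEA11 shares 0.197%. All 10 genes tested lie on the X chromosome, on which 48.6% of the genes tested fell.

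Genes of DNA methylation, the mark that silences germ cell genes, rose more often than they fell. Of 12 tested, 6 rose and 1 fell (3 and 0 in the unpaired fit), with a median of 0.35. Of the 6 that rose, 2 lie on chromosome 18 and 2 on chromosome 2, where 46.4% and 30.1% of all genes tested rose. The de novo methyltransferases DNMT3B, at 11.8, 12.9 and 13.7 CPM in Par and 32.3, 28.5 and 33.4 CPM in BrM2 (log2 1.29 ± 0.13), and DNMT3A, at 7.36, 9.68 and 8.37 CPM in Par and 18.4, 14.4 and 16.8 CPM in BrM2 (log2 0.97 ± 0.17), rose together with the demethylating dioxygenase TET3, at 23.6, 22.9 and 21.6 CPM in Par and 37.2, 48.2 and 47.1 CPM in BrM2 (log2 0.94 ± 0.16). Histone methylation genes fell more often than they rose (3 rose and 10 fell of 43), but that share of falls, 23.3%, was close to the 23.2% of all genes. The demethylase genes KDM6A and KDM5C and the deacetylase gene HDAC6 fell, with log2 fold changes of -1.26, -1.24 and -1.12, and all lie on the X chromosome.

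Interferon-stimulated genes fell more often than they rose in BrM2. These genes are switched on by the factor ISGF3, which binds the interferon-stimulated response element, whose core is the letters GAAANNGAAA on either strand. Of the effectors, which block viral entry, translation and replication, 6 of 57 members tested rose (10.5%) and 28 fell (49.1%), against 2 and 11 in the unpaired fit, with a median log2 fold change of -0.48. IFI27, a mitochondrial interferon-inducible protein, fell from 50.3, 30.7 and 28.5 CPM to 2.36, 0.486 and 1.39 CPM (log2 -4.77 ± 0.30, adjusted p = 9.19e-07). RSAD2, which makes a chain-terminating nucleotide, fell from 3.42, 2.27 and 2.67 CPM to 0, 0.177 and 0.0479 CPM (log2 -4.90 ± 0.54, adjusted p = 4.59e-05), and GBP2, a guanylate-binding protein, from 43.6, 53.0 and 64.2 CPM to 6.57, 7.64 and 10.6 CPM (log2 -2.70 ± 0.15, adjusted p = 4.14e-07). SAMD9L had 9.14, 39.8 and 40.5 CPM in Par and 2.21, 12.8 and 8.05 CPM in BrM2 (log2 -1.97 ± 0.20), with replicate 1 the lowest of each line, and its adjusted p was 2.50e-05 with the block and 0.163 without it. These falls were found at both high and low levels in Par. Of the genes that rose, APOBEC3G, a cytidine deaminase that restricts viruses, was at 5.88, 4.07 and 5.11 CPM in Par and 13.5, 10.3 and 12.2 CPM in BrM2 (log2 1.26 ± 0.16, adjusted p = 0.000121). TRIM5, a capsid-binding restriction factor, was at 10.7, 14.8 and 15.5 CPM in Par and 21.0, 31.3 and 31.2 CPM in BrM2 (log2 1.02 ± 0.13, adjusted p = 0.000155). Without BrM2 replicate 3, 3 effectors rose. For the sensors and transcription factors of the pathway, 0 rose and 4 fell of 11 tested, with 0 and 2 in the unpaired fit and a median of -0.15.

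The letters of the element are shown in 2 promoters of interferon-stimulated genes with the largest falls, from 250 bases before to 50 after the start site, as listed by RefSeq in GRCh38.p14, with matches in capitals. IFI27 is on the plus strand at chr14:94110486-94110785 and RSAD2 on the plus strand at chr2:6877527-6877826.
IFI27: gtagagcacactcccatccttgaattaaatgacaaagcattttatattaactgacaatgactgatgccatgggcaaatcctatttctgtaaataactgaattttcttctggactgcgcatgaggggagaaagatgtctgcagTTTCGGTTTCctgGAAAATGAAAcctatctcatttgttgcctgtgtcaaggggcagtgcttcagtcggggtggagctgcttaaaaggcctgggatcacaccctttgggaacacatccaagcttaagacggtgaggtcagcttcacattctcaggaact
RSAD2: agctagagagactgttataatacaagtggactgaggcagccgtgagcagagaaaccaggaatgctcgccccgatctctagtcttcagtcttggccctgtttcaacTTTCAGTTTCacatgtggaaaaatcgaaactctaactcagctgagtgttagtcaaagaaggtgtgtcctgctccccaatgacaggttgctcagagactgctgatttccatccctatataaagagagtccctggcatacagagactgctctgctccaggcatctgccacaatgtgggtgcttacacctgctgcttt
In IFI27 the first match begins 108 bases before the start, on the opposite strand, and is followed by one on the gene's strand. In RSAD2 the match begins 145 bases before the start, on the opposite strand. Of 40 interferon effectors with a promoter in the table, 30 held a match (75.0%), against 404 of 9882 genes tested (4.09%). A match was present in 17 of the 21 effectors that fell in 2 of the 3 that rose, and in 11 of the 16 that did not pass. In class I antigen presentation 11 of 21 genes held a match, and in class II 0 of 6. A second window of RSAD2, at another start site, held no match, and neither did the SAMD9L window, while GBP2 had no entry.

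The class II genes tested all fell, and class I genes fell more often than they rose. The class II molecules present peptides to CD4 T cells and are made by professional antigen-presenting cells and by some tumor cells. Of class II genes 8 were tested and 8 fell, with a median log2 fold change of -1.38, but only 2 of them in the unpaired fit. HLA-DPA1 fell from 32.7, 27.7 and 31.0 CPM to 10.8, 7.06 and 8.72 CPM (log2 -1.80 ± 0.20, adjusted p = 4.58e-05) and HLA-DPB1 from 11.7, 9.78 and 11.1 CPM to 5.09, 1.41 and 1.73 CPM (log2 -2.22 ± 0.34, adjusted p = 0.000439, and 0.0613 in the unpaired fit). The 2 genes overlap on opposite strands. The transactivator CIITA and the invariant chain CD74, both chosen after their values were seen, were at log2 -0.83 ± 0.15 and -1.60 ± 0.16. Replicate 1 was the highest BrM2 library for HLA-DPB1.

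Class I molecules present peptides to CD8 T cells. Of class I and peptide loading genes, 3 rose and 8 fell of 25 tested, with 1 and 4 in the unpaired fit and a median of -0.26. HLA-B fell from 947, 538 and 508 CPM to 283, 156 and 156 CPM (log2 -1.74 ± 0.13, adjusted p = 3.20e-06) and HLA-F from 8.14, 5.18 and 5.11 CPM to 1.55, 1.54 and 1.63 CPM (log2 -1.90 ± 0.25). Reads of HLA-B can also fall on its paralogs, with 29.6% of its stretches shared. TAP2, which moves peptides into the endoplasmic reticulum, went up from 92.1, 71.5 and 70.4 CPM to 118, 142 and 113 CPM (log2 0.68 ± 0.14), as did the NKG2D ligand ULBP3 (log2 0.61 ± 0.17, adjusted p = 0.0167) and the chaperone CANX (log2 0.37 ± 0.13, adjusted p = 0.0354, and 0.41 in the unpaired fit). Without BrM2 replicate 3, and likewise without Par replicate 3, 1 of the 3 risen class I genes passed. A difference of BrM2 from LM2 in HLA-B was not detected (log2 -0.26, adjusted p = 0.126).

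Most complement genes tested fell, and coagulation genes rose and fell in equal number. Of complement components and regulators, 0 rose and 7 fell of 10 tested, with 0 and 4 in the unpaired fit and a median of -1.25. The other 20 of 30 members were below the filter. CFP and C3 were low in BrM2 and passed the filter on the counts of other lines, which raises the share of falls among those tested. CFP, properdin, fell from 5.04, 7.02 and 5.503 CPM to 0.369, 0.221 and 0.144 CPM (log2 -4.68 ± 0.39), CLU, clusterin, from 125, 90.6 and 86.5 CPM to 22.96, 16.5 and 19.0 CPM (log2 -2.36 ± 0.14, adjusted p = 5.38e-07), and C3, the central component, from 4.04, 2.71 and 5.03 CPM to 1.70, 0.442 and 0.527 CPM (log2 -2.32 ± 0.38). CFP shares 47.0% of its stretches with another gene. In coagulation, 3 rose and 3 fell of 11 tested, with 1 and 2 in the unpaired fit and a median of -0.01. The thrombin receptor genes moved apart. F2RL2 was at 0.998, 1.55 and 1.06 CPM in Par and 7.75, 9.45 and 7.19 CPM in BrM2 (log2 2.76 ± 0.22), and F2RL3 at 5.31, 5.42 and 3.54 CPM in Par and 1.48, 0.442 and 0.336 CPM in BrM2 (log2 -2.86 ± 0.34). PROCR, the endothelial protein C receptor, was at 20.4, 10.5 and 12.6 CPM in Par and 32.3, 21.1 and 22.96 CPM in BrM2 (log2 0.85 ± 0.14, adjusted p = 0.000645, and 0.175 in the unpaired fit).

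**Figure D3:**
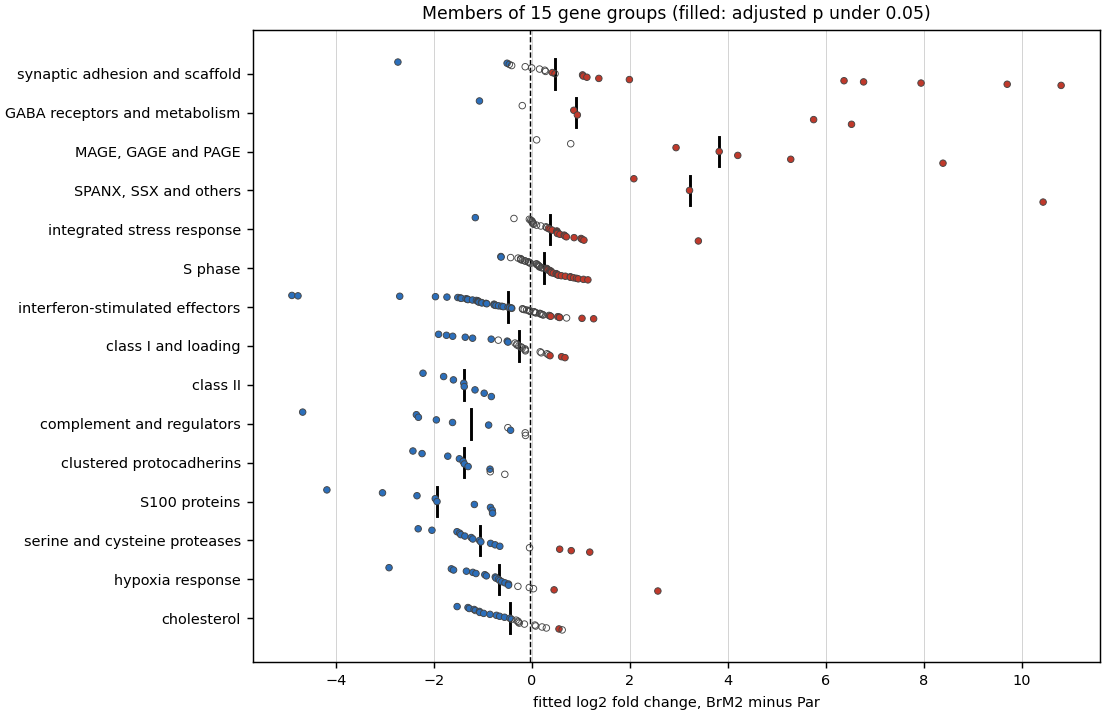
Fitted log2 fold change of BrM2 against Par for every tested member of 15 gene groups. Each point is a gene, filled red (higher) or blue (lower) where its adjusted p was under 0.05 and open otherwise, black lines are group medians, and the dashed line is the median of all genes tested (-0.04). Genes undetected in Par, such as SLITRK1, are drawn at their fitted value although only a bound holds for them. All 9 S100 genes and all 8 class II genes tested lie to the left of 0.

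S100 proteins are small calcium-binding proteins with roles in motility and inflammation, and their genes cluster on chromosome 1. The 9 members tested, of 20 in the list, lie between positions 151982915 and 153634361. All 9 fell, 6 of them also in the unpaired fit, with a median log2 fold change of -1.94, whereas 23% of all genes tested on chromosome 1 fell. S100A2 fell from 338, 201 and 169.5 CPM to 18.5, 10.6 and 9.87 CPM (log2 -4.18 ± 0.13, adjusted p = 2.03e-08). S100A4, a promoter of motility also named metastasin, fell from 1349, 882 and 745 CPM to 255, 157 and 168 CPM (log2 -2.34 ± 0.13, adjusted p = 4.45e-07). S100A5 and S100A3 also fell, with log2 fold changes of -3.05 ± 0.23 and -1.97 ± 0.24. BrM2 was below LM2 for S100A2, which averaged 163 CPM there (log2 -3.62, adjusted p = 5.30e-08).

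Of the keratins of type II and the claudins tested, more fell than rose. Among type II keratins, 0 rose and 4 fell of 5 tested, with 0 and 3 in the unpaired fit and a median of -1.69. KRT7, a keratin of simple epithelia, fell from 614, 459 and 390.4 CPM to 83.5, 48.4 and 50.8 CPM (log2 -3.02 ± 0.13, adjusted p = 9.40e-08). KRT80 fell from 431, 297 and 268 CPM to 147, 81.5 and 86.0 CPM (log2 -1.69 ± 0.14), and KRT81, which shares 44.6% of its stretches with other keratin genes or their copies, had a log2 fold change of -2.38 ± 0.25. KRT8 was at 1183, 788 and 588 CPM in Par and 788, 309 and 429.6 CPM in BrM2 (log2 -0.79 ± 0.18, adjusted p = 0.00468, and 0.41 in the unpaired fit), and its groups overlapped. KRT18, the partner of KRT8, had a log2 fold change of -0.03 ± 0.13 (adjusted p = 0.86).

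Among claudins, which seal tight junctions, 1 rose and 4 fell of 8 tested, with 1 and 4 in the unpaired fit and a median of -1.38. CLDN2, the claudin that forms cation pores, fell from 28.1, 16.9 and 18.5 CPM to 1.70, 0.971 and 1.01 CPM (log2 -4.12 ± 0.20, adjusted p = 1.50e-07), and CLDN4 was at 107, 106 and 72.7 CPM in Par and 32.7, 9.54 and 17.8 CPM in BrM2 (log2 -2.39 ± 0.27). CLDN1 alone rose, from 1.94, 3.24 and 2.91 CPM to 6.35, 11.3 and 10.7 CPM (log2 1.80 ± 0.22, adjusted p = 8.34e-05). For the scaffold and other proteins of the tight junction, 6 rose and 2 fell of 13 tested, with 3 and 1 in the unpaired fit and a median of 0.52. OCLN, occludin, was at 3.42, 5.13 and 7.27 CPM in Par and 9.60, 15.5 and 20.03 CPM in BrM2 (log2 1.51 ± 0.16) and CGN, cingulin, at 2.36, 4.07 and 2.28 CPM in Par and 9.38, 7.33 and 10.8 CPM in BrM2 (log2 1.67 ± 0.25). Connexins also divided, with GJA1 higher and the epithelial connexin GJB2 (log2 -2.41 ± 0.17) lower. Of regulators of the epithelial to mesenchymal transition, 3 rose and 5 fell of 15 tested, with 3 and 3 in the unpaired fit and a median of -0.25. VIM rose (log2 1.05 ± 0.11, adjusted p = 2.60e-05), as did the mesenchymal homeobox gene PRRX1 (log2 2.52 ± 0.35). FN1, fibronectin, which is also a mesenchymal marker, fell from 799.6, 811 and 1048 CPM to 308, 288 and 275 CPM (log2 -1.60 ± 0.13, adjusted p = 4.72e-06), and ELF3, an epithelial ETS factor, fell too (log2 -3.05 ± 0.39). Mesenchymal markers thus moved in both directions.

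Extracellular matrix genes changed more often than all genes and in both directions. Of 72 tested, 22 rose and 27 fell (13 and 16 in the unpaired fit), a share of 30.6% and 37.5%. COL1A2, the second chain of type I collagen, was at 32.8, 25.2 and 22.4 CPM in Par and 0, 0.0442 and 0 CPM in BrM2, at least 162-fold lower (adjusted p = 3.64e-08), while COL1A1, the first chain, had a log2 fold change of 0.13 ± 0.23 (adjusted p = 0.688). TGFBI, a matrix protein induced by TGF-beta, fell from 209.7, 166 and 194 CPM to 27.5, 21.0 and 20.8 CPM (log2 -3.05 ± 0.14, adjusted p = 1.17e-07), and COL7A1, the anchoring fibril collagen, from 69.2, 115 and 71.2 CPM to 17.9, 13.3 and 17.9 CPM (log2 -2.34 ± 0.21). LAMA1, a laminin chain of basement membranes, was at 0.788, 0.774 and 0.432 CPM in Par and 7.75, 8.21 and 5.85 CPM in BrM2 (log2 3.46 ± 0.26). SPARC was at 1.996, 2.32 and 2.08 CPM in Par and 32.0, 13.7 and 12.8 CPM in BrM2 (log2 3.06 ± 0.24), but its mean of 480.5 CPM in LM2 was far above both (log2 of BrM2 to LM2 -4.69, adjusted p = 1.84e-07).

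Integrins are the receptors for these proteins, and most of their beta subunits tested fell. Of 6 beta subunits 1 rose and 4 fell (1 and 2 in the unpaired fit). ITGB4, the partner of ITGA6 in hemidesmosomes, fell from 231, 282 and 178 CPM to 92.1, 29.7 and 47.9 CPM (log2 -2.13 ± 0.28, adjusted p = 0.000153), whereas ITGA6 was at 207, 269 and 284 CPM in Par and 241, 464 and 457 CPM in BrM2 (log2 0.56 ± 0.13, adjusted p = 0.00507, and 0.283 in the unpaired fit). ITGB5 fell from 379, 293 and 298 CPM to 140.0, 76.1 and 85.8 CPM (log2 -1.73 ± 0.14). ITGB2, the beta subunit of leukocyte integrins, rose from 7.14, 8.76 and 6.997 CPM to 58.2, 25.1 and 38.1 CPM (log2 2.30 ± 0.28, adjusted p = 8.92e-05). An antisense gene, ITGB2-AS1, overlaps it. Without BrM2 replicate 3, 2 beta subunits fell.

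Among proteases of the matrix and lysosome, falls outnumbered rises. Of serine and cysteine proteases, 3 rose and 13 fell of 17 tested, with 1 and 7 in the unpaired fit and a median of -1.07. The falls included 9 of 11 cathepsin genes tested, counted after their values were seen, of which CTSD, an aspartic protease of the lysosome, was at 400.4, 393 and 211 CPM in Par and 147, 37.2 and 48.9 CPM in BrM2 (log2 -2.32 ± 0.28, adjusted p = 9.60e-05). Among protease inhibitors, 5 rose and 14 fell of 26 tested, with 2 and 8 in the unpaired fit and a median of -0.57, and SERPINA1 fell from 63.4, 41.6 and 48.0 CPM to 0.960, 0.442 and 0.527 CPM (log2 -6.36 ± 0.26). CST6, a cystatin that inhibits cathepsins, fell from 10.2, 8.62 and 4.48 CPM to 0.591, 0.574 and 0.575 CPM (log2 -3.65 ± 0.27). In the ADAM and ADAMTS group, 2 rose and 7 fell of 19 tested, with 1 and 4 in the unpaired fit and a median of -0.25. In the metalloproteinase group, 2 rose and 4 fell of 9 tested, with 2 and 1 in the unpaired fit and a median of -0.65. MMP3, stromelysin, lies beside MMP1 on chromosome 11 and was at 0.0525, 0 and 0 CPM in Par and 3.03, 2.56 and 1.44 CPM in BrM2, at least 16.7-fold higher (adjusted p = 1.20e-05). ADAMTS1, a proteoglycan-cleaving protease that inhibits vessel growth, had 5.10, 7.21 and 5.42 CPM in Par and 177, 314 and 259.6 CPM in BrM2 (log2 5.39 ± 0.15, adjusted p = 1.93e-08). Its mean in LM2 was 3.21 CPM, below BrM2 (log2 6.26, adjusted p = 6.88e-09).

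Chemokines, cytokines and their receptors changed in both directions (19 rose and 21 fell of 56, with 9 and 11 in the unpaired fit). CCL2, which recruits monocytes, rose from 2.57, 1.55 and 1.89 CPM to 42.1, 57.1 and 51.1 CPM (log2 4.65 ± 0.22, adjusted p = 1.17e-07). IL13RA2, a decoy receptor for IL-13, had 0, 0 and 0 CPM in Par and 2.81, 6.40 and 4.89 CPM in BrM2, at least 33.5-fold higher. IL1B was at 0.263, 0.242 and 0.550 CPM in Par and 7.31, 5.61 and 3.35 CPM in BrM2 (log2 3.79 ± 0.34). TNFSF10, the death ligand TRAIL, fell from 40.9, 42.3 and 52.8 CPM to 1.85, 3.18 and 2.11 CPM (log2 -4.26 ± 0.21, adjusted p = 1.50e-07), as did ACKR3, a scavenger receptor for CXCL12 (log2 -5.89 ± 0.71). CSF2RA fell from 55.1, 53.4 and 50.5 CPM to 8.19, 7.77 and 6.71 CPM (log2 -2.81 ± 0.13), but lies in a region shared by the X and Y chromosomes, with 1e+02% of its stretches shared. Of subunits and feedback genes of NF-kappa-B, 4 rose and 3 fell of 21, shares at or below those of all genes. In the unpaired fit edgeR called 0 of them, with 4 at an unadjusted p under 0.05, and DESeq2 with the block called 8. Without Par replicate 3, 1 rose, and without BrM2 replicate 3, 2 rose. NFKB2, which makes the p52 subunit, was at 80.6, 64.9 and 49.2 CPM in Par and 113, 72.8 and 86.2 CPM in BrM2 (log2 0.49 ± 0.15, adjusted p = 0.0238, and 0.429 in the unpaired fit).

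Growth factor genes were exchanged within families. Among EGF family ligands, 3 rose and 4 fell of 8 tested, with 2 and 4 in the unpaired fit and a median of -0.87. AREG, amphiregulin, fell from 70.7, 58.6 and 60.5 CPM to 3.47, 3.13 and 3.93 CPM (log2 -4.15 ± 0.17, adjusted p = 7.46e-08), and EGF from 3.62, 9.10 and 8.06 CPM to 0.886, 1.10 and 1.25 CPM (log2 -2.66 ± 0.23), while the neuregulin NRG2 was at 0.578, 0.0968 and 0.354 CPM in Par and 4.28, 2.74 and 2.97 CPM in BrM2 (log2 3.33 ± 0.36) and HBEGF rose. AREG shares 94.0% of its stretches with a copy. DUSP1, a phosphatase that shuts off MAP kinases, rose from 27.1, 20.3 and 21.1 CPM to 150.4, 81.6 and 88.9 CPM (log2 2.17 ± 0.17, adjusted p = 4.85e-06). Of ligands that act on vessels, 9 rose and 4 fell of 18 tested, with 7 and 2 in the unpaired fit and a median of 0.69. PDGFD was nearly absent in Par and passed the filter on the counts of other lines, which raises the share of rises among those tested. PDGFD, a platelet-derived growth factor, was at 0, 0.0484 and 0.197 CPM in Par and 1.99, 5.03 and 5.18 CPM in BrM2 (log2 5.46 ± 0.41), and ADM, the vasodilator adrenomedullin, at 17.0, 20.6 and 13.1 CPM in Par and 162, 63.7 and 91.3 CPM in BrM2 (log2 2.57 ± 0.25, adjusted p = 1.79e-05). Of the receptors in that list, 6 rose and 6 fell of 16 tested, with 3 and 3 in the unpaired fit and a median of 0.05. TIE1 likewise was nearly absent in Par and passed the filter on the counts of other lines. ENG, endoglin, was at 2.26, 2.61 and 2.24 CPM in Par and 59.2, 36.7 and 34.7 CPM in BrM2 (log2 4.14 ± 0.19, adjusted p = 1.12e-07), and TIE1 at 0, 0.0484 and 0 CPM in Par and 4.80, 2.21 and 2.54 CPM in BrM2, at least 22.7-fold higher. Of the endothelial markers, KDR, a VEGF receptor that is also in this list, rose (log2 0.70 ± 0.20), PECAM1 fell (log2 -0.65 ± 0.24), and CDH5 stayed at or under 0.177 CPM in every library. PDGFRB fell from 31.2, 28.9 and 26.6 CPM to 10.4, 6.09 and 7.67 CPM (log2 -1.89 ± 0.22).

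In the TGF-beta and BMP pathway, inhibitors and target genes fell most often (4 rose and 10 fell of 21, with 2 and 4 in the unpaired fit). PMEPA1, a target that limits SMAD signaling, fell from 100.4, 99.4 and 99.4 CPM to 20.8, 14.4 and 13.5 CPM (log2 -2.64 ± 0.15, adjusted p = 5.38e-07). Of the ligands, INHBB, an activin subunit, was at 3.94, 6.44 and 5.90 CPM in Par and 46.4, 26.3 and 44.7 CPM in BrM2 (log2 2.81 ± 0.29) and GDF5 at 7.62, 4.89 and 3.22 CPM in Par and 0.222, 0 and 0 CPM in BrM2, at least 31.6-fold lower. CHRDL1, a BMP antagonist, rose from 7.93, 8.13 and 10.3 CPM to 70.7, 100.8 and 87.9 CPM (log2 3.29 ± 0.15, adjusted p = 9.40e-08). In the WNT pathway, 7 rose and 14 fell of 45 tested, with 4 and 4 in the unpaired fit and a median of -0.15. WNT5A, a non-canonical ligand, was at 0, 0.145 and 0.275 CPM in Par and 3.47, 8.35 and 7.91 CPM in BrM2 (log2 5.44 ± 0.39, adjusted p = 2.36e-06), and PTK7, a co-receptor of the non-canonical branch, at 47.0, 28.3 and 21.5 CPM in Par and 325, 184 and 238 CPM in BrM2 (log2 2.99 ± 0.17, adjusted p = 5.09e-07). WNT9A (log2 -3.24 ± 0.27) and the WNT antagonist SOST (log2 -4.03 ± 0.52) fell. In the Notch pathway, 5 rose and 7 fell of 29 tested, with 3 and 2 in the unpaired fit and a median of -0.26, shares close to those of all genes. JAG1 was at 111, 131 and 129 CPM in Par and 198, 252 and 231 CPM in BrM2 (log2 0.87 ± 0.11, adjusted p = 0.000113) and JAG2 at 4.25, 5.57 and 2.04 CPM in Par and 0.960, 0.0442 and 0.863 CPM in BrM2 (log2 -2.68 ± 0.59, adjusted p = 0.00416).

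Few HOX genes passed the filter, and most nuclear receptors did not pass the test. Of 39 HOX genes 3 were tested and all 3 rose, 2 of them also in the unpaired fit, led by HOXB9 with 11.8, 6.34 and 8.02 CPM in Par and 38.3, 32.5 and 35.4 CPM in BrM2 (log2 2.07 ± 0.16). Of nuclear receptors, 7 rose and 4 fell of 30 tested, with 5 and 1 in the unpaired fit and a median of 0.04. Without Par replicate 3, 2 nuclear receptors fell. RARB, a retinoic acid receptor, was at 0.0525, 0.242 and 0.157 CPM in Par and 1.92, 3.31 and 3.21 CPM in BrM2 (log2 4.20 ± 0.42).

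Genes of DNA replication rose more often than they fell, although most did not pass the test. Of 46 S phase genes, 20 rose (43.5%) and 2 fell (4.35%), with a median log2 fold change of 0.26. The count of rises fell without replicate 3 and without the block, since 9 rose without the BrM2 library of replicate 3, 9 without the Par library of replicate 3, and 4 in the unpaired fit. RRM2, a ribonucleotide reductase subunit, was at 272, 223 and 188 CPM in Par and 458, 507 and 444 CPM in BrM2 (log2 1.05 ± 0.12, adjusted p = 6.71e-05), and GINS4, of the replicative helicase, at 52.8, 47.6 and 38.8 CPM in Par and 114, 95.3 and 96.0 CPM in BrM2 (log2 1.14 ± 0.13). In G2 and mitosis, 7 rose and 4 fell of 40 tested, with 1 and 0 in the unpaired fit and a median of 0.07. CENPF, a kinetochore protein, had 138, 504 and 513 CPM in Par and 50.7, 364 and 199 CPM in BrM2 (log2 -1.08 ± 0.19), lower in BrM2 in each pair while the groups overlapped. Its adjusted p was 0.00122 with the block and 0.572 in the unpaired fit. The count of falls in this list was 2 to 9 when 1 library was left out, and that of rises 3 to 9. CDKN1A, the cell cycle inhibitor p21, was at 100.4, 59.9 and 62.0 CPM in Par and 58.5, 36.3 and 34.8 CPM in BrM2 (log2 -0.78 ± 0.15, adjusted p = 0.00215, and 0.311 in the unpaired fit).

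Genes of the integrated stress response and amino acid synthesis rose more often than they fell. Of 29 tested, 15 rose (51.7%) and 1 fell (3.45%), against 2 and 0 in the unpaired fit, and the median was 0.37. PHGDH, the first enzyme of serine synthesis, was at 9.40, 6.20 and 5.03 CPM in Par and 101.1, 54.6 and 61.4 CPM in BrM2 (log2 3.40 ± 0.18, adjusted p = 2.60e-07). LM2 averaged 102 CPM, and a difference between BrM2 and LM2 was not detected (log2 -0.40, adjusted p = 0.0639). All 3 BrM2 libraries were above the highest Par library. The later serine enzymes PSAT1 and PSPH and the folate enzymes SHMT2 and MTHFD2, chosen after their values were seen, were at log2 0.52 ± 0.11, 0.57 ± 0.13, 0.51 ± 0.16 and 0.66 ± 0.13. The neutral amino acid carriers SLC1A5, at 208, 151 and 124 CPM in Par and 409.6, 289.6 and 265 CPM in BrM2 (log2 1.004 ± 0.12), and SLC1A4 (log2 1.02 ± 0.14) rose as well, with adjusted p of 0.0779 and 0.067 in the unpaired fit. Without any library of replicate 3, 8 of the list rose. For the unfolded protein response, 3 rose and 4 fell of 21 tested, with 2 and 0 in the unpaired fit and a median of 0.03.

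Targets of NRF2, the factor of the antioxidant response, had 0 rises and 9 falls among 26 tested (0 and 5 in the unpaired fit). ABCC3, an export pump for conjugated metabolites, fell from 113, 137 and 123 CPM to 10.3, 7.24 and 8.96 CPM (log2 -3.83 ± 0.16, adjusted p = 7.57e-08), and AKR1C3, an aldo-keto reductase, from 112, 86.3 and 87.1 CPM to 16.1, 15.2 and 18.02 CPM (log2 -2.52 ± 0.16, adjusted p = 9.32e-07).

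Most hypoxia response genes tested fell. Of 21 tested, 2 rose and 16 fell (76.2%), against 1 and 7 in the unpaired fit, with a median log2 fold change of -0.68. CA12, a carbonic anhydrase, fell from 28.3, 28.4 and 33.1 CPM to 9.45, 9.27 and 10.0 CPM (log2 -1.64 ± 0.16, adjusted p = 2.08e-05) and PDK1, which keeps pyruvate out of mitochondria, from 24.1, 25.6 and 34.8 CPM to 9.01, 14.4 and 13.5 CPM (log2 -1.20 ± 0.17). NDRG1 was at 252, 226 and 294 CPM in Par and 121, 68.6 and 75.6 CPM in BrM2 (log2 -1.60 ± 0.18). VEGFA and the hypoxia factor HIF1A, chosen after their values were seen, were at log2 -0.68 ± 0.11 and -0.96 ± 0.14. Without any library of replicate 3, 7 fell. ADM, also induced by hypoxia, rose, as described above. Glycolysis itself had 3 rises and 7 falls among 24 genes, and 1 and 1 in the unpaired fit. Without Par replicate 3, 4 glycolysis genes fell. HK2, a hexokinase, rose from 62.5, 74.7 and 71.7 CPM to 159, 185 and 207 CPM (log2 1.39 ± 0.11, adjusted p = 3.80e-06).

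Cholesterol synthesis genes fell more often than they rose. Of these genes, 1 rose and 12 fell of 25 tested, with 0 and 3 in the unpaired fit and a median of -0.45. When 1 library was left out, 8 to 18 fell, with 8 without Par replicate 3 and 18 without Par replicate 1. FDFT1, squalene synthase, fell from 199.7, 183 and 243 CPM to 111, 64.2 and 87.8 CPM (log2 -1.30 ± 0.21), EBP, a sterol isomerase, from 56.8, 38.5 and 33.2 CPM to 23.2, 11.4 and 11.6 CPM (log2 -1.52 ± 0.14), and INSIG1, the feedback sensor, from 147, 215 and 318 CPM to 105, 62.3 and 114 CPM (log2 -1.28 ± 0.24). Oxidative phosphorylation had 9 higher and 18 lower genes among 86 (10.5% and 20.9%), and ribosomal proteins 10 and 9 among 77 (13% and 11.7%), shares at or below those of all genes. In the unpaired fit edgeR called 0 genes of both lists, with 8 and 3 at an unadjusted p under 0.05, and DESeq2 with the block called 28 and 19. NDUFB2, of complex I, was at 48.8, 25.1 and 25.3 CPM in Par and 19.4, 14.8 and 9.06 CPM in BrM2 (log2 -1.18 ± 0.17). Apoptosis regulators had 7 rises and 6 falls among 31 (22.6% and 19.4%), shares close to those of all genes, with 3 and 4 in the unpaired fit. The BCL2 relative BCL2A1 was at 0, 0.145 and 0 CPM in Par and 2.88, 4.64 and 3.26 CPM in BrM2, at least 25.6-fold higher, and BMF, which triggers death on loss of attachment, at 6.36, 4.21 and 6.60 CPM in Par and 1.33, 1.06 and 1.05 CPM in BrM2 (log2 -2.32 ± 0.31).

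**Figure D4:**
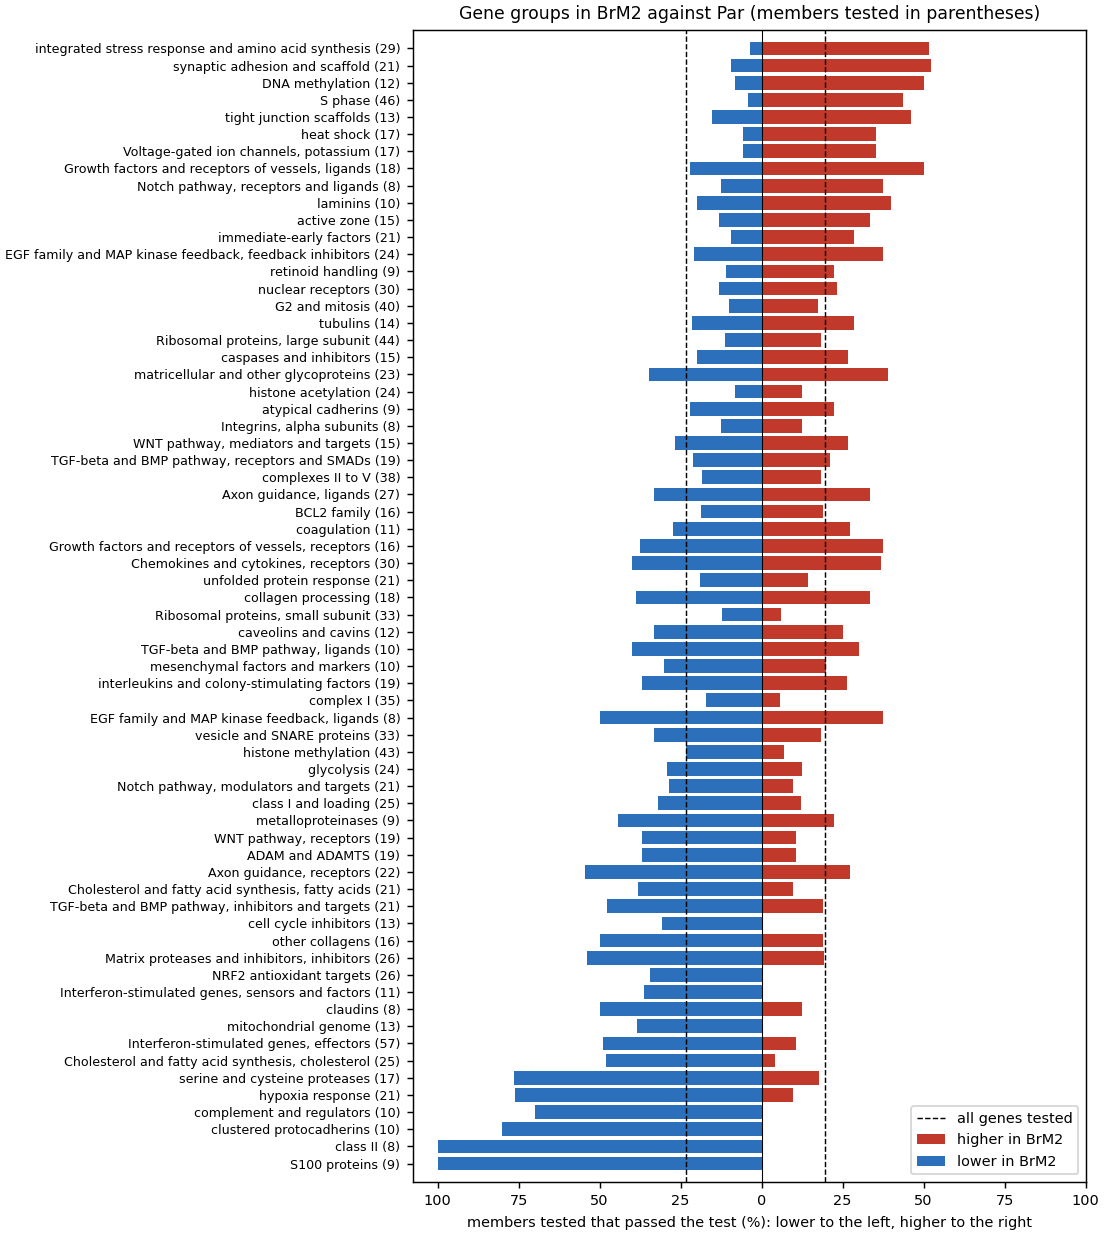
Share of the tested members of each gene group with at least 8 tested members that were higher (red, right) or lower (blue, left) in BrM2, in percent, ordered by the difference of the 2 shares, with the number tested in parentheses. Dashed lines mark the shares over all genes tested, 19.5% higher and 23.2% lower. The integrated stress response and synaptic adhesion groups stand at the top and the S100 and class II groups at the bottom.

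Changes were not spread evenly over the chromosomes. On chromosome 18, 46.4% of 183 genes tested rose and 8.20% fell, and the median log2 fold change was 0.33. The median was above 0 in each of the 8 windows of 10000000 bases with at least 10 genes tested, between 0.10 and 0.81. On chromosome 2, windows up to position 100000000 had medians of 0.23 to 0.52, and those beyond had -0.32 to 0.17. On chromosome 16, the windows from 70000001 to 90000000 had medians of 0.49 and 0.58, and those before had -0.069 to 0.175. On chromosome 9, 46.7% of 508 genes fell and 7.28% rose (median -0.38). The shift there was on the long arm side, as windows between positions 90000001 and 140000000 had medians of -0.30 to -0.70, while the window from 30000001 to 40000000, with 74 genes, had -0.01. Chromosome 7 had a similar break, with 44% of 613 genes lower (median -0.37). Its windows up to position 60000000 had medians of -0.01 to 0.26, and all those beyond had medians of -0.31 to -0.79. On the X chromosome 48.6% of 436 genes fell. Its windows up to position 60000000 had medians of -0.59 to -1.36, whereas the window from 140000001 to 150000000, with 12 genes of which 7 rose and 0 fell, had a median of 1.47. That window overlaps the cancer-testis genes described above, as the SPANX and SSX group tested ends at position 141698739. Most cancer-testis genes tested passed the filter on the BrM2 libraries, so the window is no separate result. The copy number of these regions was not measured in the data used here, and its part in the result was not tested.

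**Figure D5:**
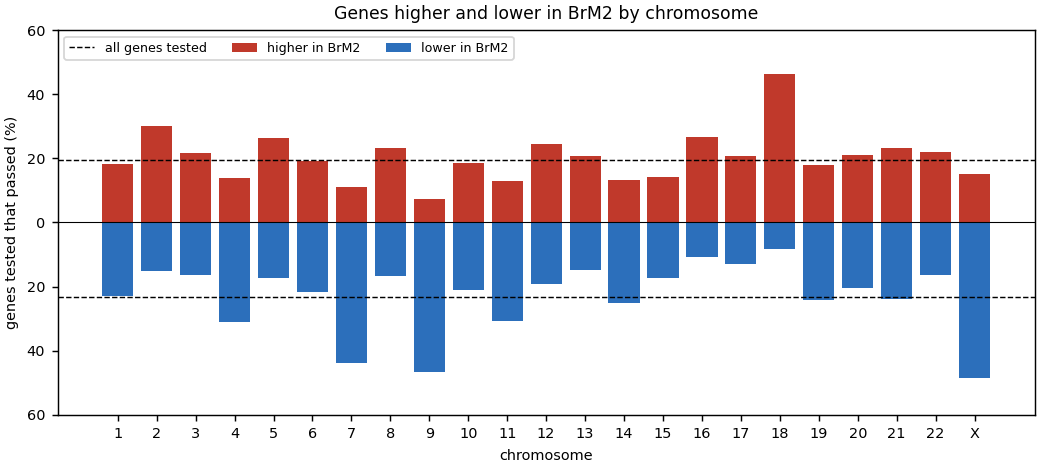
Share of the genes tested on each chromosome that were higher (red, up) or lower (blue, down) in BrM2, in percent, with dashed lines for the shares over all genes tested (19.5% and 23.2%). Chromosome 18 has the highest share of risen genes, 46.4%, and chromosomes 7, 9 and X have 44% to 48.6% of their genes lower.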

How the data were processed

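RNA from 9 cultures (3 lines, 3 passages each) was sequenced from stranded poly(A) libraries. According to the methods of the study, reads were aligned to hg38 with STAR, and the authors deposited the resulting gene counts as whole numbers, without normalization. The submitters' processing notes list CASAVA 1.8.2, STAR 2.7.0 and DESeq2 and the builds hg19 and hg38. The strand counted is not given in the sources used here, so reads of genes that overlap on opposite strands cannot be told apart. Among the genes named, these are TENM1, SCNN1A, PLAU, SYT2, ITGB2, ITGA6, KRT7, KRT8, VIM, HLA-DPA1, HLA-DPB1, F2RL2, ENG, PDK1, NDUFB2 and SLC1A5. A second deposited table holds the authors' own fold changes and p-values and was not used.

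Rows for 3 duplicated identifiers were identical and kept once. Genes whose largest normalized count was under 49.24 were left out, a threshold set by the method of HTSFilter, which maximizes the mean Jaccard index between replicates and was rewritten for this purpose. Kept genes held 99.64% to 99.77% of the counts. TMM factors and the quasi-likelihood test were from edgeR 4.0.16 in R 4.3.3, with replicate number and line as terms and all 9 libraries, and p-values were adjusted over the 13001 genes by the method of Benjamini and Hochberg. The tables were made with pandas 2.3.3 and the figures with matplotlib 3.10.9. The replicate number was taken from the sample titles, and its use as a block was set when the comparison was defined. The deviations of libraries with the same number from the mean of their line correlated in all 9 pairs (r from 0.23 to 0.90). The lowest value was that of BrM2 and Par replicate 2, and these correlations did not decide the use of the block. The calling procedure was tested on simulated data. Of the genes tested, 554 had no symbol in the table, of which 528 were named from RefSeq. Positions and promoters are those of GRCh38.p14.

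The gene lists and the naming rule were chosen with earlier results of these data known. The rule named the 15 largest rises and falls among called protein-coding genes where the groups did not overlap and the mean count was 50 or more. Genes that the study's text names, or that its pathway table lists as BrM2 targets, were left out of these. The rule also named up to 4 rises and 4 falls per list where the mean count was 20 or more, all mediators, and the markers. COL1A1 and KRT18 are among the markers, and CTSD was chosen after its values were seen. Of 93 groups tested, 17 held a gene whose fold is given as a bound, and 0 medians changed by over 0.005 when these genes were put at their bound. Alternatives were a fit without the block, a fit of the 6 libraries alone, RLE normalization, other filters, DESeq2 1.42.0, and each library or replicate number left out. A few genes that the rule named are not reported here.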

Additional observations from a re-analysis of the deposited data

Results flagged for a closer look

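Of the genes named by the rule, 18 differed from Par in opposite directions in BrM2 and LM2, with each of the 3 contrasts (BrM2 and LM2 each against Par, and BrM2 against LM2) passing edgeR's quasi-likelihood test. Both comparisons with Par share the same 3 Par libraries. The difference of the lines was tested directly as the contrast of BrM2 and LM2, and 11 genes were higher and 7 lower in BrM2.

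Among the genes higher in BrM2, the log2 fold change of BrM2 against LM2 was 6.26 for ADAMTS1, 2.61 for CLDN1, 2.46 for the splicing factor ESRP2, 4.66 for the endocytic protein EHD3, 1.74 for HK2, 1.34 for NFKB2 and 0.91 for thrombomodulin, THBD. ADAMTS1 averaged 5.91 CPM in Par, 250.4 CPM in BrM2 and 3.21 CPM in LM2. For COX7B2, NCAM2, MAGEA11 and CCL2 every LM2 library had at most 3 counts, so that the fitted values of 8.94, 11.18, 7.16 and 8.56 rest on the prior of the fit and are no measure of size. CCL2 averaged 2.003 CPM in Par, 50.1 CPM in BrM2 and 0.129 CPM in LM2.

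The genes lower in BrM2 held several of the matrix and its receptors. The log2 fold change of BrM2 against LM2 was -3.79 for TGFBI, -3.09 for COL7A1, -1.96 for FN1, -1.82 for the integrin subunit ITGB8, -3.23 for PMEPA1, -3.30 for RGS4, which limits G protein signaling, and -1.15 for the ribosomal protein gene RPL7A. TGFBI averaged 190.0 CPM in Par, 23.1 CPM in BrM2 and 325 CPM in LM2, and FN1 886, 290.2 and 1131 CPM. RPL7A was at 5621 CPM in LM2 replicate 1 and at 2346 and 1988 CPM in the other LM2 libraries. For ITGB8, NFKB2, THBD and RPL7A the difference of BrM2 from Par was not called in the unpaired fit.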

How the results depend on the processing

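The replicate block decided the number of calls. Without this pairing, 1721 genes passed in place of 5551, and all 1721 had passed with it in the same direction. When single libraries or all libraries of 1 replicate number were left out, 2991 to 5820 genes passed, with the lowest number without replicate 3, and 3788 to 5625 when a single BrM2 or Par library was left out. DESeq2 called 5565 genes, RLE normalization 5590, filterByExpr 6282, no filter 6486 and the 6 libraries alone 4285. The number of genes past 2-fold was 1944, against 3064 with no filter, where more genes were tested, and 1798 to 2083 when libraries were left out. The cause of the differences between replicate numbers was not tested. Of 271 named genes, 269 were called, 193 of them also without the block, 229 in every fit that left libraries out and 191 in all 15 alternatives, and 0 were called in the opposite direction. RLE moved the median of all genes by 0.03 on the log2 scale. Genes under a few CPM rest on few counts, which limits how well their folds are known.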
